A study of Rattus norvegicus with 36 samples.

Results

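Rats whose superior cervical ganglia had been removed on both sides (SCGX) were compared between night and day in 6 RNA-seq libraries of pineal glands, 3 from midnight (ZT19) and 3 from mid-day (ZT7), out of 36 libraries in the series. Members were chosen by the SCGX label alone and not by any measured value. The animals were Sprague-Dawley rats of both sexes, operated on postnatal day 5 and studied at 40 days of age. Glands of several animals were pooled for each library, and the replicates are therefore pools. The other in vivo groups were Control (no surgery), Sham (neck surgery without cutting or removing nerve tissue) and DCN (ganglia left in place but cut off from their central input), each with 3 night and 3 day libraries. In a separate experiment, glands of other animals, unoperated females older than the rats above, were kept in organ culture and then given norepinephrine (NE), dibutyryl cyclic AMP (DBcAMP) or nothing, with 3 libraries each. Single libraries of pineal gland at day and of mixed tissue from elsewhere in the body were used to find genes enriched in the gland.

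The pineal gland makes the hormone melatonin at night. Its cells receive sympathetic fibres from the superior cervical ganglia, and these fibres release norepinephrine in darkness under the command of the clock in the suprachiasmatic nucleus. Norepinephrine acts on adrenergic receptors and raises cyclic AMP, which turns on a large set of genes at night. Without the ganglia the fibres degenerate, so a night/day difference that remains in SCGX glands is one found in the absence of sympathetic terminals in the gland. The removal itself could not be checked against a gene here, because the files list Ensembl identifiers and do not pair them with names. For the same reason no gene is called by a symbol below, and genes are described in groups, most of them defined on libraries other than those of SCGX. The groups defined on SCGX itself are named as such where they appear.

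Between 12985072 and 15748372 read-pairs per SCGX library were counted on genes. The groups are not separated by depth, with totals of 12985072, 15748372 and 13443955 at night and 15741366, 14018632 and 13944276 at day. Genes enriched over 32-fold in mixed tissue, a gauge of tissue from outside the gland, had median log2 levels within -0.09 to 0.15 of the Control day mean in all 6 SCGX libraries. Sham night replicate 3 (2.40) and DCN day replicate 1 (2.25) stood apart on the same gauge. The 10 most abundant genes took 7.28 to 7.79% of read-pairs at day and 6.47 to 7.06% at night, and these ranges did not overlap.

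With edgeR's quasi-likelihood test, 2 of the 15549 genes tested in SCGX passed an adjusted p under 0.001 (0.0129%), both higher at night. At an adjusted p under 0.05 the number was 287 (1.85%), with 158 higher (1.02%) and 129 lower at night (0.83%). The changes were small: the median absolute log2 change of the 287 genes was 0.60, 139 of them changed by less than 1.5-fold, 59 by more than 2-fold and 9 by more than 4-fold. Night and day libraries did not overlap for any of the 287, a separation that 23.1% of all genes tested showed. The common biological coefficient of variation was 9.2% in SCGX, below the 14.4% of Control, 20.1% of DCN and 28.2% of Sham. Scaling by library size alone gave 221 higher and 89 lower, a share of 71.3% higher against 55.1% with TMM scaling. Single libraries moved the count of 287: it was 89 without SCGX day replicate 1, 73 without SCGX day replicate 3 and 147 without SCGX night replicate 3. The count of 2 became 0 without SCGX day replicate 1 or 3, 1 without SCGX night replicate 1, 5 without SCGX day replicate 2 and 4 without SCGX night replicate 2.

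The genes with the smallest p in SCGX in each direction are shown by library in the plot of 4 genes. ENSRNOG00000025895 had normalized read-pair counts of 484, 470 and 394 at day and 2274, 1774 and 1955 at night in SCGX. Every night library was far above every day library, and the change was 2.15 ± 0.11 on the log2 scale (SE, n = 3 per group; edgeR adjusted p = 0.000133). In Control the same gene went the other way, with 1346, 1443 and 1539 at day and 853, 699 and 654 at night, a log2 change of -0.99 (adjusted p = 0.000253). Sham had a log2 change of -1.15 (adjusted p = 0.00996). In DCN the night libraries were spread from 616 to 2315 around day values of 1214 to 1428, and the log2 change was 0.17 (adjusted p = 0.936). By their means, SCGX day was the lowest of the 8 groups (449 ± 48.7, SD) and SCGX night the highest (2001 ± 253). In culture the gene was not called with NE (log2 -0.02, adjusted p = 0.964) or DBcAMP (log2 -0.04, adjusted p = 0.897).

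ENSRNOG00000011292 was the other gene past the stricter threshold. Its counts were 2299, 2436 and 2539 at day and 4189, 4310 and 4183 at night, and the change was 0.80 ± 0.05 (SE; edgeR adjusted p = 0.000757). The SCGX libraries of each time lay close together for this gene, while Sham night ranged from 2289 to 8320, with the highest value in the library that stood apart on the tissue gauge. Its log2 changes in Control and DCN were -0.36 (adjusted p = 0.244) and 0.13 (adjusted p = 0.929), and NE raised it by 0.40 (adjusted p = 0.000326).

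Among genes lower at night, ENSRNOG00000018690 had counts of 618, 606 and 680 at day and 154, 187 and 233 at night in SCGX, a log2 change of -1.73 ± 0.13 (SE; edgeR adjusted p = 0.00119). In Control it was higher at night, with 538, 499 and 406 at day and 1041, 1266 and 1194 at night (log2 1.26, adjusted p = 6.91e-05). Sham also had more at night (log2 1.95, adjusted p = 0.00765), and NE raised it in culture (log2 1.51, adjusted p = 9.88e-09), as did DBcAMP (log2 1.51, adjusted p = 4.86e-08).

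ENSRNOG00000008560 had counts of 607, 685 and 649 at day and 273, 315 and 324 at night in SCGX (log2 -1.09 ± 0.09, SE; edgeR adjusted p = 0.00147). In Control the change had the opposite sign, from 169 ± 3.79 at day to 376 ± 47.9 at night (SD; log2 1.14, adjusted p = 0.000163). In Sham its day values ran from 108 to 369 and its night values from 151 to 410, with no call (log2 -0.19, adjusted p = 0.84). For the 3 genes other than ENSRNOG00000025895 the call in SCGX was lost when all 24 in vivo libraries shared 1 estimate of the spread (adjusted p = 0.546, 0.307 and 0.449, in the order given here).

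**Figure D1:**
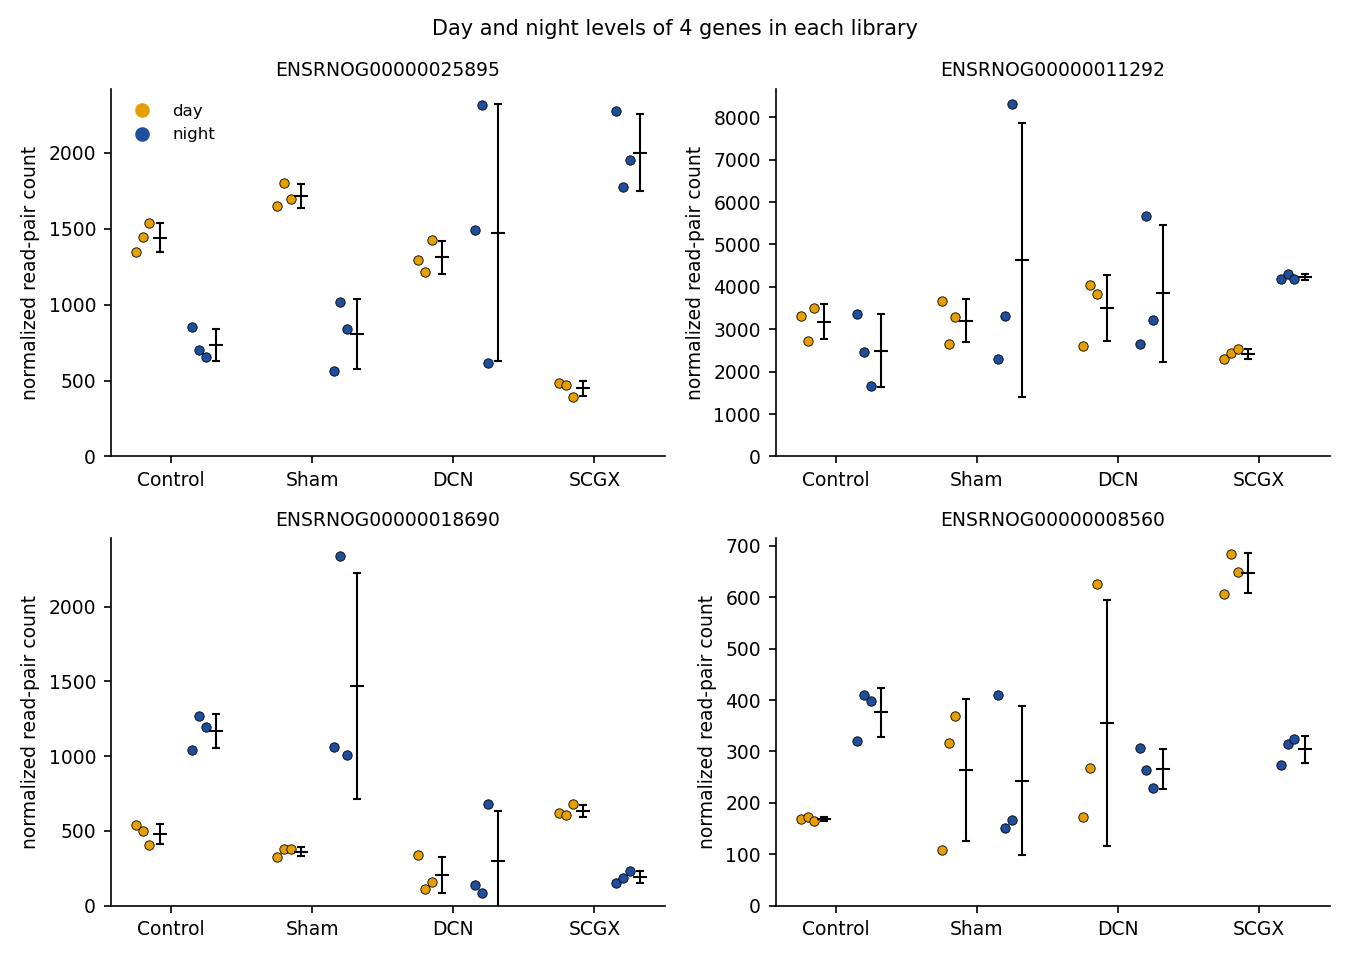
Normalized read-pair counts (linear axis from 0) of the 4 genes in each of the 24 in vivo libraries, by group, with day in orange and night in blue. Each point is a library and the black mark gives the mean ± SD of 3 libraries, cut at 0. In SCGX the day and night points are apart for all 4 genes, and 3 of the 4 have the reverse order in Control without overlap.

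Whether the night/day change in SCGX differed from that in another group was tested as the interaction of group and time. Against Control 4879 genes (31.2%) differed, and against Sham 2944 (18.5%), both at an adjusted p under 0.05. Against DCN 0 genes (0%) differed with edgeR, 1665 had an unadjusted p under 0.05, and DESeq2's Wald test gave 43. For ENSRNOG00000025895 the change in SCGX exceeded that in Control by 3.14 on the log2 scale (edgeR adjusted p = 6.27e-08) and that in Sham by 3.24 (adjusted p = 5.88e-06). For ENSRNOG00000018690 the differences were -3.00 against Control (edgeR adjusted p = 2e-07) and -3.75 against Sham (adjusted p = 5.82e-05). The genes were picked by their change in SCGX, which is a part of each difference. Against DCN neither difference was called (edgeR adjusted p = 0.344 and 0.433).

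Genes with a strong rise at night in intact glands were then followed in SCGX. In Control, 296 genes were higher at night by more than 4-fold at an adjusted p under 0.001, and they are called night genes here. In SCGX 282 of them passed the filter on low counts. The other 14 were not tested. In SCGX 3 of the 282 rose at night (1.06%) and 15 fell (5.32%), against 1.02% and 0.83% of all genes. At an unadjusted p under 0.05, 13 were higher and 67 lower at night, or 4.61% and 23.8%, while 9.49% and 8.66% of all genes were. The median log2 change was -0.06 in SCGX, 0.38 in DCN and 2.71 in Sham, and 2.89 in Control, where the rule used it.

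The 15 night genes that fell were chosen by their call in SCGX. All 15 were raised by NE in culture, as were 248 of the 273 night genes tested in both (90.8%). NE raised 9 of the 15 more than 4-fold, against 66 of the 273 (24.2%). Their log2 changes ran from -1.87 to -0.40, with a median of -0.96, where Control had gains of 2.03 to 5.30. Their median change in DCN was 0.01, with values from -0.57 to 0.71. The number that fell was moved by more than 1.5 times by every library left out: it was 3, 33 and 2 without SCGX day replicates 1, 2 and 3, and 5, 9 and 1 without SCGX night replicates 1, 2 and 3.

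**Figure D2:**
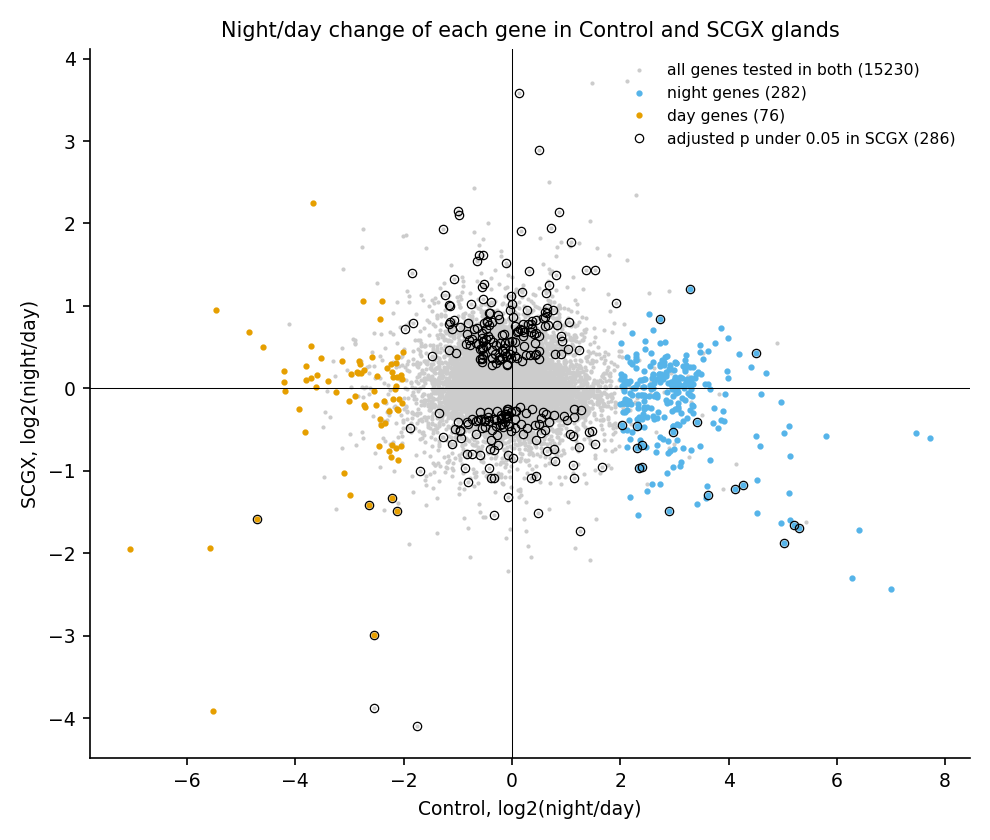
Night/day log2 change of each gene in SCGX (vertical axis) against that in Control (horizontal axis) for 15230 genes tested in both, with night genes in blue, day genes in orange and the 286 of these genes called in SCGX circled. Night genes lie from 2 upward on the Control axis, and 15 of the 18 circled ones are below 0 on the SCGX axis.

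Night genes were next grouped by their response to NE in culture. Of the 71 that NE raised more than 4-fold, 66 were tested in SCGX, and 9 fell at night (13.6%) and 1 rose (1.52%), against 0.83% and 1.02% of all genes. The count of 9 was 2, 18 and 1 without SCGX day replicates 1, 2 and 3, and 4, 5 and 1 without SCGX night replicates 1, 2 and 3. The group's median log2 change was -0.44, with quartiles of -0.78 and -0.07, and 50 of 66 had a lower estimate at night. At an unadjusted p under 0.05, 31 of them were lower (47.0%) and 4 higher (6.06%), against 8.66% and 9.49% of all genes. The median level of these genes over the Control day mean was 0.96, 0.72 and 1.31 on the log2 scale in the SCGX day libraries and 0.70, 0.70 and 0.58 at night. The day libraries were all above the night libraries, though day replicate 2 only barely so. Without SCGX day replicate 3 the median change was -0.27, and without any other library it lay between -0.53 and -0.39. Compared with intact glands, these genes were held between the day level and the night level (3.25 to 3.41 in Control night) at both times in SCGX. Sham day was at 0.10 to 0.13. Night genes were picked for low levels in these same Control day libraries, so other groups tend to lie above Control day. In DCN the day libraries were at -0.02 to 0.19 and the night libraries at 0.19 to 0.47, an order opposite to that in SCGX. In bulk RNA, fewer cells of a type and less RNA per cell cannot be told apart.

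The interaction of group and time between SCGX and DCN was called for none of these genes. At an unadjusted p under 0.05 the night/day change was lower in SCGX than in DCN for 33 of 65 night genes raised over 4-fold by NE, and higher for 2. It was lower for 68 and higher for 3 of 182 night genes that NE raised, though not over 4-fold. Among 111 night genes with a length under 200 bases, 39 were lower and 0 higher. Of 25 night genes that NE did not raise, 0 were lower and 0 higher. Of all 281 night genes, 105 were lower and 5 higher. For all genes tested, 5.07% were lower and 5.49% higher by the same rule. The median change of night genes raised over 4-fold by NE was 0.25 in DCN, and 0.26 without DCN day replicate 1.

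Genes that NE raised more than 4-fold in culture but that were not night genes formed a separate group. Of 42 such genes 30 were tested in SCGX. Of these 1 rose and 1 fell (3.33% each), against 1.02% and 0.83% of all genes. At an unadjusted p under 0.05, 2 were higher (6.67%) and 5 lower (16.7%), against 9.49% and 8.66% of all genes. The median log2 change of the 30 was -0.11. Their levels were -0.24, -0.12 and -0.22 in the SCGX day libraries and -0.23, -0.15 and -0.21 at night, below the Control day mean at both times. Of 28 night genes that NE did not raise, 25 were tested. With edgeR 1 rose (4.0%) and 0 fell (0.0%), against the same shares of all genes. At an unadjusted p under 0.05, 2 were higher and 2 lower (8.0% each), against 9.49% and 8.66% of all genes. The median abundance of the 25 was 1.7 CPM (read-pairs scaled to the library's total), against 26.5 CPM for night genes raised over 4-fold by NE. Across 273 night genes tested in both, Pearson's r between the log2 change in SCGX and the log2 response to NE was -0.45, and Spearman's rho was -0.34. The genes share their libraries and are not independent of each other, so these values are descriptive.

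**Figure D3:**
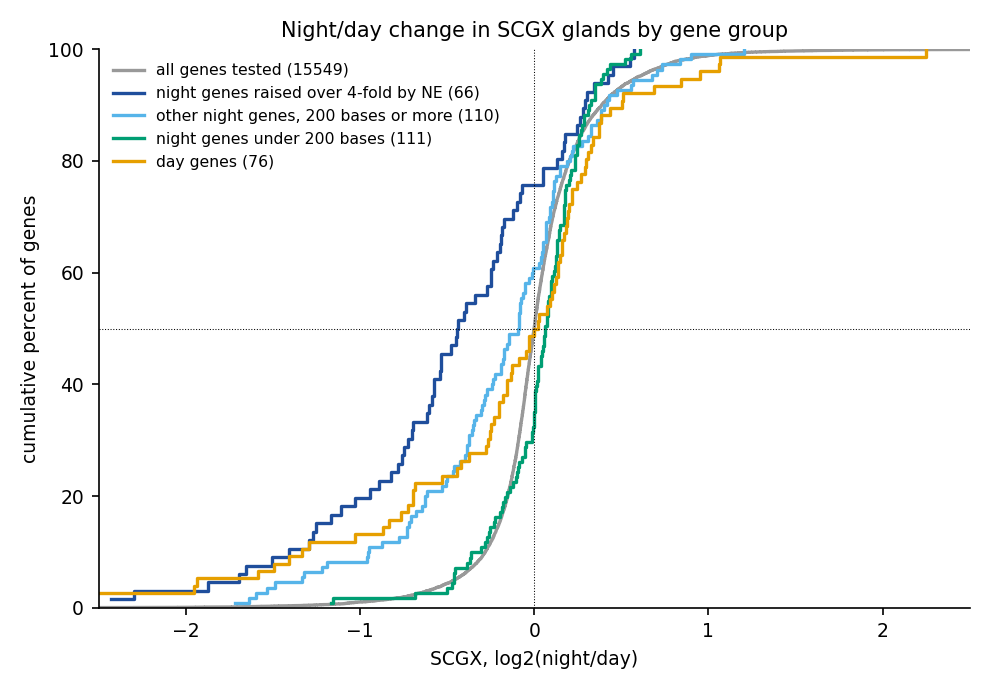
Cumulative percent of genes (vertical axis) against the night/day log2 change in SCGX (horizontal axis, drawn from -2.5 to 2.5) for all genes tested and for 4 groups of genes, where 5 night genes under 200 bases also belong to the group raised by NE. The curve of the 66 night genes raised over 4-fold by NE crosses 50% at -0.44, while night genes under 200 bases cross it at 0.06 and day genes at 0.01.

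Night genes were also grouped by gene length. Of the 282 tested, 111 had a length under 200 bases in the annotation used by the authors, against 713 of 15549 genes overall. None of these short genes was called in either direction with edgeR, where 1.02% of all genes were higher and 0.83% lower. The count was 0 also with DESeq2 and without any 1 SCGX library, and 1 lower with edgeR and no count filter. At an unadjusted p under 0.05, 1 was higher (0.901%) and 3 lower (2.7%), against 9.49% and 8.66% of all genes. The median levels of the short genes over Control day were 1.21, 1.37 and 1.46 at day and 1.44, 1.37 and 1.35 at night in SCGX. The day and night ranges overlapped, and both were far above Control day (-0.04 to 0.13) and below Control night (2.78 to 3.06). Sham day was also above Control day (0.17 to 0.34). These genes were picked for low levels in the same Control day libraries, so other groups tend to lie above Control day. In DCN the same genes were at 0.74 to 1.02 at day and 1.27 to 1.54 at night, without overlap. Their median abundance in SCGX was 4.2 CPM, against 22.0 CPM for the longer night genes. Among all 3110 genes between 2.0 and 10.6 CPM, 31 rose and 10 fell. Short genes can have near-identical copies, and read-pairs that fall on more than 1 gene were not counted, so their levels are uncertain.

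The 171 night genes of 200 bases or more held all 15 that fell (8.77%) and all 3 that rose (1.75%). Among all genes the shares were 0.83% and 1.02%. At an unadjusted p under 0.05, 64 of the 171 were lower at night (37.4%) and 12 higher (7.02%). Among all genes these shares were 8.66% and 9.49%. The median log2 change of the 171 was -0.24. Their levels were 0.70, 0.53 and 0.74 at day and 0.37, 0.56 and 0.44 at night. The ranges overlapped, since night replicate 2 was above day replicate 2. Among the 82 of these that NE raised, though not over 4-fold, 6 fell (7.32%) and 1 rose (1.22%). The shares of all genes were 0.83% and 1.02%, and the median change of the 82 was -0.15.

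Genes that are high by day in an intact gland did not move in a single direction. Control had 76 genes lower at night by more than 4-fold at an adjusted p under 0.001, and all 76 were tested in SCGX. Of these day genes 5 fell at night (6.58%) and 0 rose, against 0.83% and 1.02% of all genes. At an unadjusted p under 0.05, 18 were lower (23.7%) and 11 higher (14.5%), against 8.66% and 9.49% of all genes. The median log2 change was 0.01, with quartiles of -0.43 and 0.22. The 5 genes that fell were chosen by their call in SCGX, and day genes by their fall in Control. Their shared direction was therefore set by these rules. They changed by -2.99 to -1.33 in SCGX (edgeR adjusted p from 0.00518 to 0.048) and by -4.71 to -2.12 in Control. The change differed between SCGX and Control for 3 of the 5 (edgeR interaction, adjusted p under 0.05). Their mean normalized counts in SCGX went down to 3.32 at night and 27.3 at day. Of the 5, 3 were tested in culture, and none was called with NE there. The count of 5 was 2 without SCGX day replicate 1 or SCGX night replicate 3, and 3 without SCGX day replicate 3. As a group, day genes were below the Control day mean at both times in SCGX, with median levels of -0.66, -0.79 and -0.90 at day and -0.95, -1.05 and -0.84 at night, against -2.59 to -2.38 in Control night. The day and night ranges overlapped. Sham day was also below that mean (-0.38 to -0.15), as were DCN day (-0.61 to -0.49) and DCN night (-1.17 to -0.76). Day genes were picked for high levels in these same Control day libraries, so other groups tend to lie below them.

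**Figure D4:**
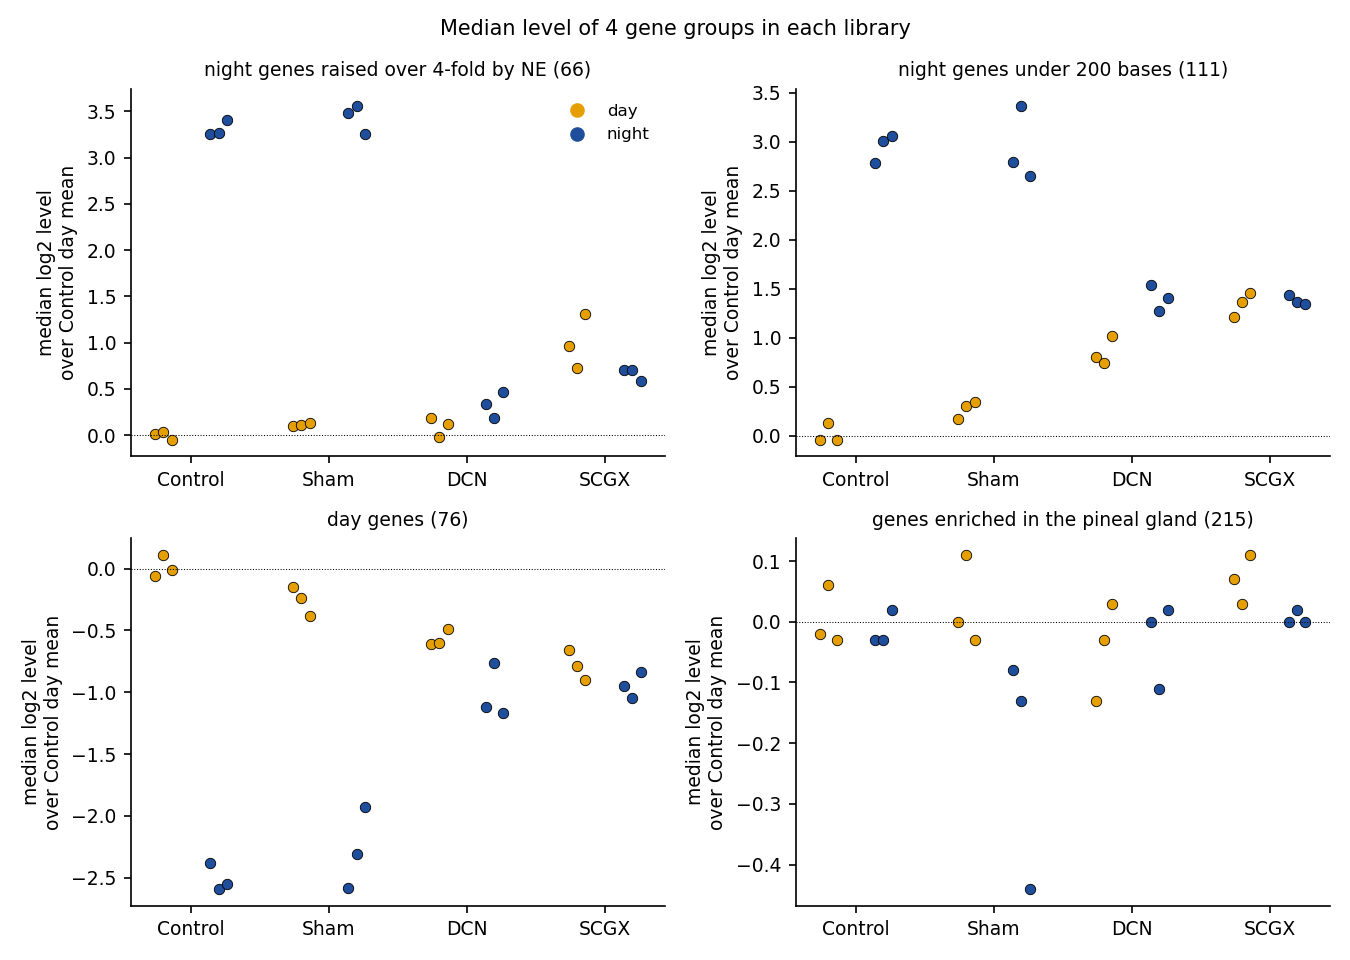
Median log2 level of 4 gene groups in each in vivo library (points, day in orange and night in blue), relative to the mean of the Control day libraries, with the number of genes in brackets. In SCGX, night genes raised over 4-fold by NE were higher in the 3 day libraries (0.72 to 1.31) than in the 3 night libraries (0.58 to 0.70), whereas short night genes and day genes had overlapping values.

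Genes enriched in the pineal gland were tested as a gauge of the gland's own transcripts. In the single libraries, 221 genes were over 8-fold higher in the pineal gland at day than in mixed tissue. In SCGX 215 of them were tested, 14 fell at night (6.51%) and 1 rose (0.465%), against 0.83% and 1.02% of all genes. At an unadjusted p under 0.05, 61 were lower (28.4%) and 17 higher (7.91%), against 8.66% and 9.49% of all genes, and the median log2 change was -0.13. These genes took 7.30, 7.54 and 7.73% of read-pairs, in rising order, at day and 6.73, 6.91 and 7.03% at night. Control had the same order, with 6.91 to 6.98% at day and 6.20 to 6.50% at night. Night genes took 0.763 to 0.814% of Control read-pairs at day and 4.85 to 5.97% at night. The part of night genes in the Control order was not tested. After scaling, the median log2 level of the enriched genes in Control was -0.03 to 0.06 at day and -0.03 to 0.02 at night. In SCGX it was 0.03 to 0.11 at day and -0.00 to 0.02 at night. Genes enriched in mixed tissue went the other way in SCGX without overlap, from 0.047 to 0.0532% of read-pairs at day and from 0.0545 to 0.0564% at night. In Control they took 0.0558 to 0.0602% at day and 0.0429 to 0.0505% at night. Their part in the fall of pineal-enriched genes was not tested. Of the 90 enriched genes tested that were not called in Control, 7 fell at night in SCGX and 1 rose. The count of 14 was 9 without SCGX day replicate 1, 6 without SCGX day replicate 3 and 2 with all 24 in vivo libraries in 1 model.

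The enriched genes were abundant, and abundance moved with the share of genes lower at night. When the genes tested were divided by abundance into 5 classes of equal size, 66 of 3110 fell in the top class (2.12%) and 19.6% were lower at an unadjusted p under 0.05. In the lowest class the values were 5 of 3110 (0.161%) and 4.31%. From the lowest class to the top, the median log2 change was 0.014, 0.071, 0.031, -0.013 and -0.045. At an unadjusted p under 0.05, 5.14% were higher in the lowest class, 12.5% in the next and 6.91% in the top class. Of the 215 enriched genes 88 were in the top class, and of the 66 night genes raised over 4-fold by NE 19 were. The part of abundance in the counts for these groups was not tested. Over 5 classes of length the median change stayed between -0.010 and 0.006, but calls were more frequent in longer genes, from 15 higher and 12 lower in the shortest class to 52 and 34 in the longest.

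The 158 genes higher at night and the 129 lower at night in SCGX were looked up in the other groups. Of the 158, all tested in Control, 97 were not called there, 30 were higher and 31 lower at night, and their median abundance was 31.8 CPM. Of the 128 lower genes tested in Control, 44 were higher, 40 lower and 44 not called, and their median abundance was 80.0 CPM. In Control as a whole, 18.2% of genes were higher and 17.1% lower at night. In Sham, 101 of 157 higher genes had a positive change and 69 of 128 lower genes a negative one, against 45.4% and 54.6% of all genes tested in both. Without Sham night replicate 3 these were 73 of 157 and 63 of 127, against 46.8% and 53.2%.

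In culture, NE raised 50 and lowered 18 of the 125 genes lower at night in SCGX that were tested there, while it raised 14.2% and lowered 16.1% of all genes. Of the 152 genes higher at night in SCGX, it raised 16 and lowered 17. DBcAMP raised 47 and lowered 26 of 124 of the lower genes, and raised 33 and lowered 28 of 152 of the higher genes, against 19.4% raised and 22.6% lowered of all genes. Without SCGX day replicates 1, 2 and 3, the genes lower at night numbered 39, 149 and 31. NE raised 17, 83 and 12 of them and lowered 7, 15 and 3. Without SCGX night replicates 1, 2 and 3, the genes lower at night numbered 88, 109 and 49. NE raised 20, 37 and 14 of these and lowered 16, 22 and 11. Across the 277 genes called in SCGX and tested with NE, Pearson's r of the log2 changes was -0.27 and Spearman's rho -0.23.

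In DCN glands, which share no library with SCGX, 104 of 157 genes higher at night in SCGX also had a positive change, and 88 of 129 lower genes a negative one, while 49.3% of all genes tested in both had a positive change and 50.7% a negative one. At an unadjusted p under 0.05 in DCN, 24 of the higher genes were higher and 1 lower, and 19 of the lower genes were lower and 2 higher. Of all genes tested in DCN, 4.57% were higher and 4.41% lower by this rule. Without DCN day replicate 1 these counts were 25 and 0, and 16 and 3, and 73 of 129 lower genes had a negative change. Across 286 genes called in SCGX and tested in DCN Pearson's r of the log2 changes was 0.40 and Spearman's rho 0.38. Over all 15419 genes tested in both, Pearson's r was 0.07. With Control the values were -0.08 over 286 called genes and -0.07 over 15230 genes.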

How the data were processed

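Pineal RNA was measured by stranded, ribo-depleted RNA-seq. The authors aligned reads with STAR 2.3.1y to rn4, assigned read-pairs to Ensembl genes under HTSeq's union rule, and deposited whole read-pair counts without normalization. The authors also deposited RPKM values, used here only to recover gene lengths. Samples were grouped by their labels. The counts were analysed in R 4.3.3 with edgeR 4.0.16 (TMM, quasi-likelihood test, Benjamini-Hochberg over all genes tested), using only the libraries compared and leaving out genes whose normalized count averaged under 5. Alternatives were DESeq2 1.42.0, other scalings, filters and fits, a replicate block and each SCGX library left out.

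Class levels are medians of log2(normalized count + 1) minus the Control day mean. Enriched genes had a mean count above 30. SCGX totals were 12985072 to 15748372. With 3 libraries against 3, an exact permutation test cannot go below 0.1. P-values measure the spread between pools. Groups of genes, lists and comparisons were chosen with earlier results of these data known. Without symbols, the naming rule and the lists of pathway genes and cell type markers could not be applied. The 2 identifiers with the smallest p in each direction are given instead, an order set after the values were seen.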

Additional observations from a re-analysis of the deposited data

Results flagged for a closer look

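Tests of the interaction of group and time picked out results in which the night/day change in SCGX differed from that in another group. In all, 4879 genes differed between SCGX and Control and 2944 between SCGX and Sham (edgeR, adjusted p under 0.05). The SCGX change minus the Control change on the log2 scale was 3.14 for ENSRNOG00000025895, 1.17 for ENSRNOG00000011292, -3.00 for ENSRNOG00000018690 and -2.23 for ENSRNOG00000008560, with edgeR adjusted p-values of 6.27e-08, 0.00386, 2e-07 and 2.85e-07. Against Sham the differences were 3.24 for ENSRNOG00000025895 and -3.75 for ENSRNOG00000018690 (edgeR adjusted p = 5.88e-06 and 5.82e-05). The differences against Sham were not called for ENSRNOG00000011292 (0.27, edgeR adjusted p = 0.766) and ENSRNOG00000008560 (-0.97, edgeR adjusted p = 0.298). All of these named genes were picked by their change in SCGX, which is a part of each difference, so their p-values are not independent support. Single libraries were examined by the tissue gauge and by leaving out each SCGX library, but no formal test for outlying libraries was run on groups of 3.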

How the results depend on the processing

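The number of genes differing in SCGX at an adjusted p under 0.001, reported as 2, was 175 with DESeq2, 58 without a count filter, 0 with all 24 in vivo libraries in 1 model and 4 with the other form of the quasi-likelihood fit (legacy FALSE). Leaving out single SCGX libraries gave 0 to 5. The number at an adjusted p under 0.05, reported as 287, was 584, 658 and 25 under the first 3 of these settings, and 73 to 296 with a library left out. DESeq2 called 280 of the 287 in the same direction. The fit of all 24 libraries in 1 model, which shares 1 spread with groups that varied more, called 21 of the 287. The cause of these shifts was not tested. Same-numbered night and day SCGX libraries deviated with correlations of -0.020, -0.077 and -0.011, so the numbers do not pair them, and a fit with a replicate block gave 1 and 181 genes. The interaction with DCN, reported as 0 genes, was 43 with DESeq2 and 0 to 3 with a library left out. Interactions with Control gave 4014 to 4406 and with Sham 2278 to 3768 genes with a library left out, the highest of the latter being without Sham night replicate 3, a setting chosen after the data were seen, as was leaving out DCN day replicate 1. Night genes that fell at night, reported as 15, numbered 35 with DESeq2, 40 without a filter, 6 with 1 model and 1 to 33 with a library left out. The median change of night genes raised over 4-fold by NE was between -0.53 and -0.27 under these settings. For the 4 identifiers 53 of 56 alternatives kept the call, and the other 3 were the fit of 1 model.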

Other observations

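A few genes had the same night/day direction in all 4 in vivo groups. By a rule set after the data were seen (adjusted p under 0.05 in SCGX, Control and Sham, and an unadjusted p under 0.05 in DCN, each with edgeR), 9 of 15107 genes tested in all groups were higher at night and 10 lower. The higher genes had median log2 changes of 0.77 in SCGX, 0.91 in Control, 1.19 in Sham and 0.80 in DCN. The lower genes had medians of -0.48 in SCGX, -0.91 in Control, -1.27 in Sham and -0.47 in DCN. Of the 19 genes NE raised 3 higher and 3 lower ones and lowered 1 and 2, against 14.2% raised and 16.1% lowered of all genes. Of the 19, 2 higher genes were night genes and 1 lower gene was a day gene. Without DCN day replicate 1, 9 and 7 genes still met the rule in DCN, and without Sham night replicate 3, 8 and 10 met it in Sham. The change differed between SCGX and Control for 4 of the 9 and 6 of the 10 (edgeR interaction, adjusted p under 0.05), as it did for 31.2% of all genes.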
